A study of Homo sapiens with 6 samples.

Results

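The sites described here are the DHX9 binding regions that a pair of different antibodies placed at nearly the same position on the same RNA strand. They were chosen by the measured positions of 2 deposited lists of peak regions, 1 for the antibody labelled DHX9-mAb and 1 for that labelled DHX9-Rb. A DHX9-mAb peak is a matched site when a DHX9-Rb peak of the same strand overlaps it by at least 50% of the width of each. Of the 6831 DHX9-mAb peaks, 4242 met this rule, which is 62.1% (95% Wilson interval 60.9 to 63.2). On the other side, 4246 of the 21618 DHX9-Rb peaks were a match, or 19.6% (19.1 to 20.2).

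All libraries came from HEK293, a long-established cell line of human embryonic kidney origin, with no treatment or genetic change named in the labels. The cells were irradiated with ultraviolet light, which ties proteins to the RNA they touch, and the RNA held by the protein was trimmed with RNase I, ligated to adapters at its 3′ end and sequenced, in the cross-linking method called FLASH. Each DHX9 antibody had 2 biological replicates, and 1 list stands for both, so no spread between replicates can be given. Material precipitated with a control immunoglobulin, IgG-Rb, was mixed with the DHX9 material before the cDNA was made, and its 2 libraries are not analysed here. The lists give the first base, last base and strand of each peak in hg19 (a human assembly) but neither its height nor its read depth.

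DHX9, also called RNA helicase A, unwinds double-stranded RNA and RNA:DNA hybrids in the nucleus. Inverted copies of Alu elements, a repeat family abundant in human introns and 3′ untranslated regions, can fold into long double-stranded RNA when they are transcribed together, and DHX9 is known to act on such RNA. In cross-linking data an antibody can also bring down other proteins that it recognises, so positions found with separate antibodies are often used as a set of their own. What the rule used, the overlap of the positions, is described below without a test. Sites in 1 transcript share their source and are not replicates, so intervals on shares and medians cover counting error only.

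Few peaks had more than 1 partner, and the rule left little room for it. At the required overlap, peaks of 1 list can share a partner almost only where they overlap each other. The small counts that follow therefore say little about the antibodies. The rule was met by 4247 pairs, in which 5 DHX9-mAb peaks had more than 1 partner and 1 DHX9-Rb peak had more than 1. Where there was a choice, the partner with the larger overlap was used. The same rule was also applied across strands. On the opposite strand, 42 DHX9-mAb peaks had a DHX9-Rb partner, or 0.615% of the list, and 22 of these 42 lay on the mitochondrial chromosome, which is transcribed along its whole length on both strands. Close neighbours among the matched sites nearly always shared their strand, as described below. How many DHX9-Rb peaks lay opposite a DHX9-mAb peak was not counted. The 42 are therefore no measure of matches by position alone.

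Matched sites shared most of their positions, which the rule fixed in advance by requiring at least 50% of both widths. The smaller of the overlap shares had a median of 73.0% (interquartile range 62.0 to 83.6%). In all, 86.1% of the nucleotides of the matched DHX9-mAb peaks and 76.7% of those of their DHX9-Rb partners were shared. At least 75% of both widths was shared at 1896 sites (44.7%), at least 90% at 490 (11.6%) and at least 95% at 183 (4.31%). At the edge of the rule, 180 DHX9-mAb peaks had a share of 50 to 52% and 138 had one of 48 to 50%. These neighbours looked alike, with a median overlap of 159 nt inside and 157.5 nt outside, a median DHX9-mAb width of 195.5 and 201 nt, and a median DHX9-Rb width of 286 and 280 nt.

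Another 1769 DHX9-mAb peaks had some overlap with DHX9-Rb but were not matched. In 1089 of them (61.6%) the overlap fell short only as a share of the DHX9-Rb peak, which was then the wider one. The median width there was 158 nt for DHX9-mAb and 386 nt for DHX9-Rb. In 248 (14.0%) it fell short only as a share of the DHX9-mAb peak, with 320 nt for DHX9-mAb against 144.5 nt for DHX9-Rb. In the other 432 (24.4%) both shares were too small. There the widths were 191 and 272.5 nt, and the median overlap was 53.5 nt.

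The 5′ ends of matched sites coincided more often than their 3′ ends, on both strands. Offsets are given as the DHX9-Rb position minus the DHX9-mAb position along the RNA, so a negative value puts the DHX9-Rb end further upstream. The 5′ ends were identical at 121 sites and the 3′ ends at 72. They lay within 2 nt at 471 sites for the 5′ end (11.1%, Wilson 10.2 to 12.1) and at 277 sites for the 3′ end (6.53%, 5.83 to 7.31). Within 10 nt the shares were 26.3% (25.0 to 27.7) and 20.2% (19 to 21.5). Within 50 nt they were 69.4% and 63.7%, and within 100 nt 89.9% and 87.6%. The rule treats both ends alike, so this order of the ends is not fixed by the choice of members. It was not tested, because sites within a transcript and the libraries behind them are shared.

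In genome order the closer end changed sides with the strand. On the plus strand, where the genomic start is the 5′ end of the RNA, the median distance between starts was 27 nt and between ends 35 nt. On the minus strand, where the genomic end is the 5′ end, it was 34 nt between starts and 30 nt between ends. On the plus strand 27.1% of 5′ ends (25.4 to 29) and 20% of 3′ ends (18.4 to 21.7) lay within 10 nt. The minus-strand shares were 25.4% (23.5 to 27.3) and 20.5% (18.8 to 22.3). The share was higher for the 5′ end on 24 of the 24 chromosomes with more than 1 matched site. It ranged from 19.6% on chromosome X to 42.6% on chromosome 4 for the 5′ end. On chromosome 22 the ends were almost alike, with 20.1% and 19.3%.

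**Figure D1:**
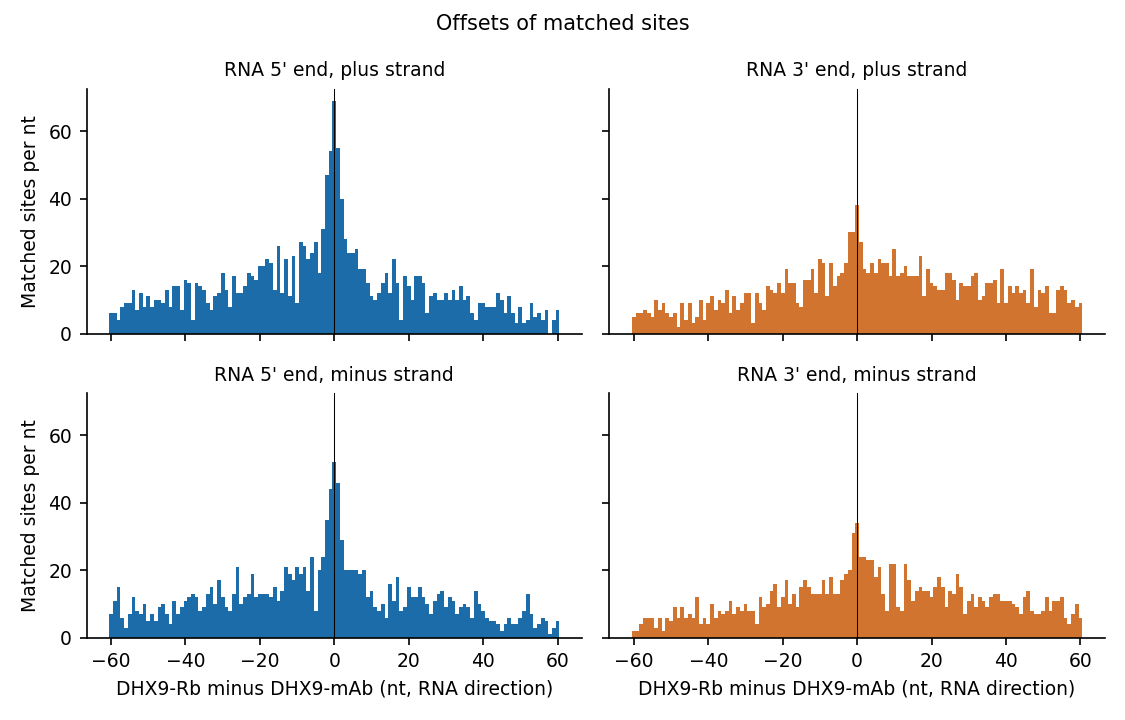
Number of matched sites at each offset between -60 and 60 nt (DHX9-Rb minus DHX9-mAb, along the RNA), for 5′ ends (blue) and 3′ ends (orange) on each strand. A narrow spike stands at 0 on a broad base, and it is taller for 5′ ends (69 plus-strand and 52 minus-strand sites at 0) than for 3′ ends (38 and 34).

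The offsets were made of a narrow spike and a broad base. Within 2 nt of 0 there were 94.2 sites per nucleotide of offset at the 5′ end and 55.4 at the 3′ end. Between 11 and 20 nt either way the numbers were 29.4 and 29.2. The spike therefore stood at 3.21 times this base for the 5′ end and 1.89 times for the 3′ end, while the base itself was nearly the same height at both ends.

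**Figure D2:**
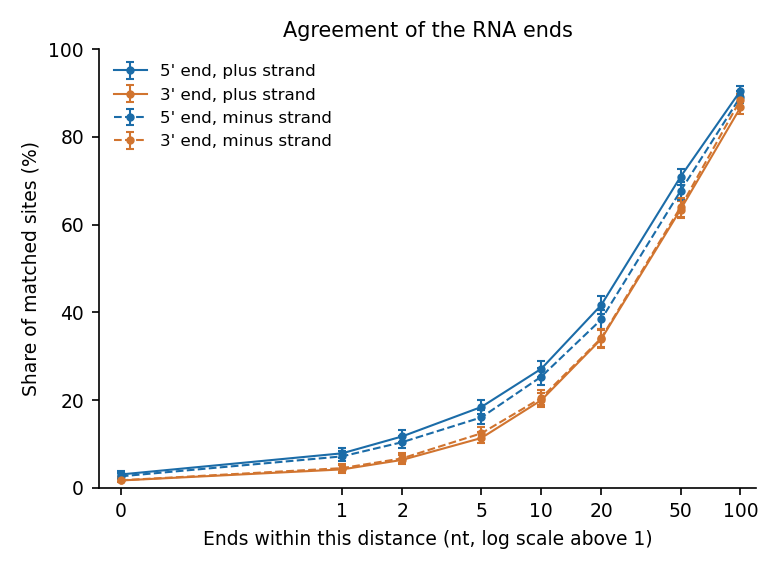
Share of matched sites (y axis, percent) whose 5′ ends (blue) or 3′ ends (orange) lie within a given distance (x axis, nt, log scale above 1), for plus-strand (solid) and minus-strand (dashed) sites, with 95% Wilson intervals. The 5′ curves lie above the 3′ curves at each distance shown, from 11.7% and 10.4% against 6.37% and 6.72% within 2 nt.

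Over all matched sites, the spike included, the median offsets lay outwards at both ends. Each end was summarised on its own, and the DHX9-mAb peak lay inside the DHX9-Rb peak at 35.3% of sites. The median 5′ offset was -4 nt (interval of the median -6 to -3) and the interquartile range ran from -39 to 19 nt. The DHX9-Rb end was the more upstream at 2371 sites (55.9%) and the less upstream at 1750 (41.3%). The median 3′ offset was 11 nt (9 to 13), with an interquartile range of -18 to 51 nt. The DHX9-Rb end was the more downstream at 2536 sites (59.8%). Strands gave nearly equal medians, -3 and -4 nt at the 5′ end and 11 and 10 nt at the 3′ end for plus and minus. In genome order this appears as a start offset of -3 nt on the plus and -10 nt on the minus strand, and an end offset of 11 and 4 nt. The midpoints of the peaks differed by a median of 2.25 nt downstream (1.5 to 3.5), with an SD over sites of 47.2 nt.

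Of the matched sites, 62.8% were wider with DHX9-Rb. The median matched DHX9-mAb peak was 204 nt wide (interquartile range 155 to 273), and its partners had a median of 231 nt (167 to 314). Site by site, the DHX9-Rb peak was wider by a median of 23 nt, with an interquartile range of -22 to 75 nt and extremes of -288 and 349 nt. It was the wider at 2664 sites, the narrower at 1543 (36.4%) and of equal width at 35. The ratio of widths had a median of 1.12 and lay between 0.634 and 1.82 for the central 90% of sites. The rule itself keeps this ratio between 0.5 and 2. By median the DHX9-Rb peak was the wider on 23 of 24 chromosomes, and on chromosome 13, with 12 sites, the median difference was 0 nt. The greater DHX9-Rb width was not particular to matched sites. Peaks outside the match were narrower in both lists, with medians of 174 nt for DHX9-mAb and 195 nt for DHX9-Rb.

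Pairs were nested or staggered in comparable parts on both strands. At 1498 sites (35.3%) the DHX9-mAb peak lay inside the DHX9-Rb peak, which reached a median of 29 nt further upstream and 36 nt further downstream. At 722 sites (17%) the DHX9-Rb peak lay inside, by 22 nt at the 5′ end and 23 nt at the 3′ end. The DHX9-Rb peak was displaced upstream at both ends at 938 sites (22.1%) and downstream at both ends at 1077 (25.4%). Nesting of DHX9-mAb in DHX9-Rb took 35.6% of plus-strand and 34.9% of minus-strand sites.

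**Figure D3:**
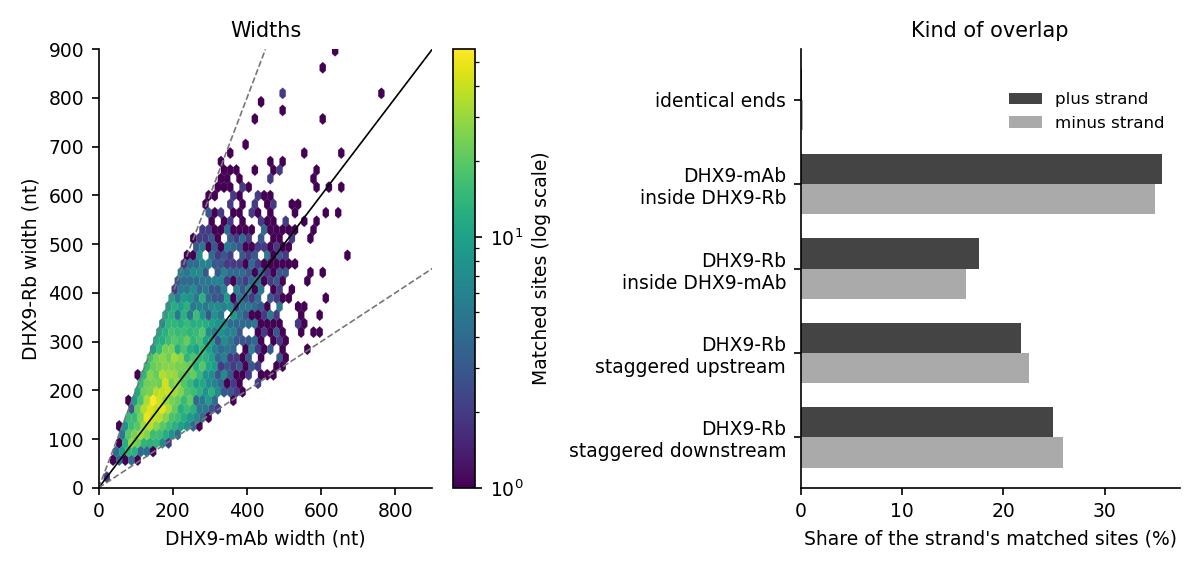
Left, width of each matched DHX9-mAb peak against its DHX9-Rb partner (nt; colour, number of sites on a log scale; solid line, equal widths; dashed lines, the 2-fold limits that the rule sets). Right, share of matched sites on each strand by kind of overlap, with DHX9-mAb inside DHX9-Rb the most frequent at 35.6% and 34.9%.

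Both ends were identical at 7 sites. They lay on chromosome 10 from 74916465 to 74916688 (minus, 224 nt), chromosome 20 from 34316119 to 34316242 (minus, 124 nt) and chromosome 11 from 46783940 to 46784051 (minus, 112 nt). The others were on chromosome 2 from 29149929 to 29150011 (plus, 83 nt), chromosome 19 from 10218330 to 10218403 (plus, 74 nt), chromosome 7 from 93853626 to 93853648 (plus, 23 nt) and chromosome 8 from 77557822 to 77557843 (minus, 22 nt). Most of them were narrow, with a median width of 83 nt against 204 nt for all matched sites. The last pair were the narrowest peaks of the DHX9-mAb list.

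The widest matched site was on the unplaced contig chrUn_gl000220, from 117647 to 118417 on the plus strand, where 771 nt with DHX9-mAb met 808 nt with DHX9-Rb. Next came a minus-strand site of chromosome 22 from 36913691 to 36914357, with 667 nt against 470 nt. A plus-strand mitochondrial site from 1991 to 2650 had 660 nt against 694 nt, and its 3′ ends differed by 3 nt. The largest 5′ offset was -350 nt, at a mitochondrial minus-strand site from 12172 to 12664. It was followed by -305 nt on chromosome 16 from 28968965 to 28969607 (plus) and -298 nt on chromosome 19 from 4106245 to 4106601 (minus). The largest 3′ offsets were 320 nt on chromosome 1 from 35582979 to 35583482 (plus) and 292 nt on chromosome 16 from 74674351 to 74674732 (minus). The next was 273 nt on chromosome 1 from 151198701 to 151199053 (plus). At these 6 sites the DHX9-Rb peak was the wider one, by 252 to 325 nt.

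Narrow sites agreed more closely at both ends. For sites with a mean width of both peaks under 120 nt (n = 317), 65.0% of 5′ ends and 49.8% of 3′ ends lay within 10 nt. For 180 to 240 nt (n = 1159) the shares were 24.5% and 18.5%, and for 320 nt or more (n = 770) 12.6% and 9.87%. Part of this is set by the rule, since a wide peak may be displaced further and still be matched. The smaller overlap share, the value that the rule itself used, had a median of 82.7% in the narrowest class and 70.9% in the widest. The excess of the DHX9-Rb width went the other way, from a median of 3 nt in the narrowest class to 26 nt at 180 to 240 nt and 50.5 nt in the widest.

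Matched sites lay in groups along a strand, with long empty stretches between them. From the midpoint of 1 matched site to the next on the same strand, the median distance was 4146 nt (interval of the median 3420 to 5243). This value rests on the rule and on how peaks are divided: it was 1602 nt when 25% of both widths had to overlap, 72812 nt with 75%, and 20361 nt when peaks within 50 nt were merged first. The interquartile range ran from 704 to 308043 nt. The distance was under 1 kb in 1376 of 4193 cases (32.8%) and 1 Mb or more in 734 (17.5%). The shortest was 93.5 nt. Below 1 kb the distances were most frequent between 400 and 500 nt (282 cases). All DHX9-mAb peaks, of which the matched sites are a part, followed each other at a median of 1490 nt, and all DHX9-Rb peaks at 753.5 nt. Taking a part of a list widens its spacing, so this order follows from the choice of members.

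Close neighbours among the matched sites were mostly next to each other in both lists. In 969 of the 1376 cases under 1 kb (70.4%) no other peak of either list had its midpoint between the sites. Another DHX9-Rb peak was absent in 1045 (75.9%) and another DHX9-mAb peak in 1216 (88.4%). From 1 to 10 kb, at least 1 further DHX9-Rb peak lay between in 847 of 958 cases (88.4%), with a median of 2. A longer gap has more room for a further peak, since all DHX9-Rb peaks followed each other at a median of 753.5 nt. The contrast between the distance classes therefore follows at least in part from their lengths. The rule ties both sites of a pair of neighbours to their partners, so the distance between them had to be similar in both lists. Measured in DHX9-Rb it differed from that in DHX9-mAb by a median of 46 nt in either direction, by at most 50 nt in 53.2% of cases and by at most 10 nt in 14.3%. When both strands were read together, 1363 of the 1394 neighbours under 1 kb apart shared their strand (97.8%). Of the 1186 that were 100 kb or more apart, 617 did. The same was not counted for all peaks of either list, so it is not shown to be a trait of matched sites.

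**Figure D4:**
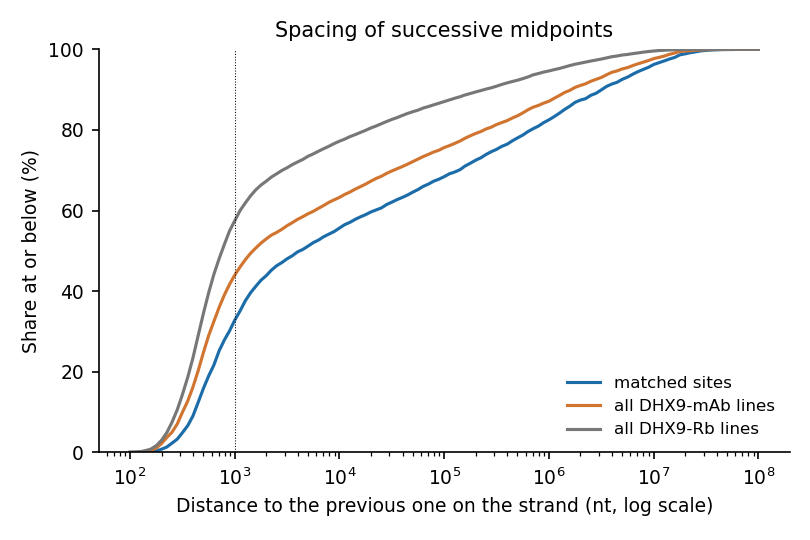
Share of successive midpoints on 1 strand (y axis, percent) at or below a given distance (x axis, nt, log scale) for matched sites (n = 4193 distances), all DHX9-mAb peaks (n = 6782) and all DHX9-Rb peaks (n = 21569). The dotted line at 1000 nt marks where the matched sites reach 32.8%, the DHX9-mAb list 44.0% and the DHX9-Rb list 57.5%.

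Sites far from any other matched site were narrower than those in groups. The 1135 sites (26.8%) that lay 10 kb or more from the next matched site of their strand were 172 nt wide by median in the DHX9-mAb list and 188 nt in the DHX9-Rb list. For the 1151 sites with a neighbour under 500 nt away they were 220 and 256 nt. The 5′ ends lay within 10 nt at 34.5% of the remote sites and 23.4% of the crowded ones, and the 3′ ends at 23.8% and 19.8%. Width and closeness move together, as described above, and the part of each in this difference was not tested.

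Runs of matched sites, each under 1 kb from the next, held 2096 of the 4242 sites in 720 runs, and the other 2146 (50.6%) stood alone. There were 90 runs of 5 or more sites, with 555 sites in all (13.1%). Where a gene is named below, the name comes from knowledge of the assembly hg19. Its chromosome and strand were checked against a GENCODE annotation of the later assembly GRCh38, whose coordinates were not used.

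The longest run, 12 sites over 4941 nt, was on the plus strand of the mitochondrial chromosome from 7838 to 12778. It held 15 DHX9-mAb and 16 DHX9-Rb peaks in all, so most peaks of either list there were matched. A run of 11 sites on chromosome 12 from 110835689 to 110841328 (minus) lay in ANAPC7, which encodes a subunit of the anaphase-promoting complex, a ubiquitin ligase of mitosis. It took in 13 DHX9-mAb and 14 DHX9-Rb peaks. Another 11 sites on chromosome 16 from 89875145 to 89880347 (minus) lay in FANCA, a core component of the Fanconi anaemia pathway that repairs DNA crosslinks. There, 12 DHX9-mAb peaks stood beside 11 DHX9-Rb peaks, each of which was a match.

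Runs of 10 sites were found on chromosome 19, from 41874513 to 41880115 (plus) and from 46359674 to 46364456 (minus). The second lay in SYMPK, the gene of symplekin, a scaffold protein of mRNA 3′-end processing, with 12 peaks in each list. There were 10 runs of 8 sites, and the first 5 by position outside chromosome X are given. They lay in GNB1, a G protein beta subunit (chromosome 1 from 1811455 to 1816025, minus), and in SOBP (chromosome 6 from 107839394 to 107843095, plus), where all 8 peaks of each list were matched. The others were MALAT1, an abundant nuclear long non-coding RNA (chromosome 11 from 65269352 to 65273455, plus), PCBP2, a poly(C)-binding protein (chromosome 12 from 53862904 to 53865445, plus), and ANKRD11, a chromatin regulator (chromosome 16 from 89533519 to 89536986, minus). In MALAT1, 11 peaks of each list covered the run. Median spacing within these 10 runs ranged from 339.5 nt in PCBP2 to 668 nt in GNB1.

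The ends of the DHX9-Rb peaks were not displaced the same way in each run. In ANAPC7 the median 3′ offset was 98 nt and the 5′ offset 2 nt, while in FANCA the 5′ offset was -49 nt and the 3′ offset 16 nt. In MALAT1 the median offsets lay outwards at both ends, by 29 nt upstream and 92.5 nt downstream. In PCBP2, where peaks were narrow (131 nt in the DHX9-mAb and 146 nt in the DHX9-Rb list), the offsets were -1.5 and 24 nt.

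In windows of 100 kb, matched sites were found in 1531 of the 1936 windows that held a DHX9-mAb peak. There was 1 matched site in 758 of them, 5 or more in 237 and 10 or more in 69, and these last held 24.3% of all matched sites. In 195 of the 237 windows with 5 or more (82.3%), all matched sites lay on 1 strand. This share was not computed for all peaks of either list, so it is not shown to be particular to matched sites. The 10 densest windows together held 272 sites, or 6.41%. The densest was on chromosome 1 from 113503630 to 113577721, at SLC16A1-AS1, a long non-coding RNA transcribed opposite to a monocarboxylate transporter gene. It had 36 matched sites among 57 DHX9-mAb and 127 DHX9-Rb peaks, all on the plus strand. The mitochondrial chromosome followed with 35 among 50 and 54, of which 23 were on the plus strand. FANCA on chromosome 16 (89801605 to 89880347, minus) had 34 among 54 and 90.

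The window at FBXO17, an F-box gene, and SARS2, the mitochondrial seryl-tRNA synthetase gene (chromosome 19 from 39412935 to 39465368, minus), had 28 matched sites among 55 DHX9-mAb and 53 DHX9-Rb peaks. Of the DHX9-mAb peaks there, 50.9% were matched, the lowest share of the 10 windows. Shares of single windows rest on few peaks, and differences between windows were not tested. EIF4G3, a scaffold of translation initiation (chromosome 1 from 21414447 to 21499909, minus), was next with 25 of 49 (51.0%). PIP5K1A, a phosphoinositide kinase gene (chromosome 1 from 151172304 to 151199655, plus), had 25 of 35 (71.4%). The window that includes the start of SPEN, a transcriptional repressor gene (chromosome 1 from 16147646 to 16188700), had 23 of 35, with 17 on the plus and 6 on the minus strand.

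The remaining windows held 22 matched sites each. On chromosome 10 from 126459460 to 126498870, 18 of them were on the minus strand. The window overlaps EEF1AKMT2, a minus-strand gene that encodes a lysine methyltransferase of elongation factor eEF1A. In it 22 of the 30 DHX9-mAb peaks were matched (73.3%), the highest share of the 10, which was not tested either. On chromosome 17 from 1251448 to 1289073 they lay in YWHAE, the gene of 14-3-3 epsilon (minus, 22 of 37). On chromosome 19 from 37817858 to 37888152 they lay at HKR1 and ZNF527, a pair of zinc finger genes (plus, 22 of 32). There the matched DHX9-Rb and DHX9-mAb peaks had nearly equal median widths, 243 and 242 nt. At FANCA they were 341.5 and 256.5 nt.

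The share of DHX9-mAb peaks that were matched hardly moved with the density of the window. Windows that held 1 DHX9-mAb peak (n = 863) gave 59.7% (Wilson 56.4 to 62.9), and those that held 2 to 4 gave 64.0% (61.8 to 66.2). It was 63.0% (60.5 to 65.4) with 5 to 9, 62.1% (59.6 to 64.5) with 10 to 19, and 59.7% (56.8 to 62.5) where 39 windows held 20 or more.

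Matched sites were present on all 25 sequences that carried a peak, and their number followed the size of the DHX9-mAb list there. Chromosomes 19, 1 and 17 led with 635, 631 and 397 sites, together 39.2% of all. Chromosomes 13 and 18 had the fewest among the nuclear chromosomes, 12 and 18. Over the stretch from its first to its last matched site, chromosome 19 had 11 sites per Mb, chromosome 22 had 7.55 and chromosome 17 had 4.98, against a median of 1.01 over chromosomes 1 to 22 and X. The first 50% of all matched sites, taken from the fullest bins down, fitted into 100 of the 809 1-Mb bins with a matched site.

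The matched share was alike on most chromosomes. The interval of 22 of 24 chromosomes held the share of the whole list, 62.1%. The others were chromosome 9, with 94 of 176 DHX9-mAb peaks matched (53.4%, Wilson 46.0 to 60.6), and chromosome 21, with 108 of 154 (70.1%, 62.5 to 76.8). No test was made of these differences. On the mitochondrial chromosome the share was 70.0% (56.2 to 80.9). Plus-strand peaks were matched in 63.4% (61.8 to 65.0) and minus-strand peaks in 60.6% (59.0 to 62.3). Spacing differed widely. The median distance to the previous matched site on the strand was 1454 nt on chromosome 19 and 309047 nt on chromosome 3. On chromosome 19 59.7% of the sites had another within 1 kb, on chromosome 3 28.3%, and on chromosome 13 0%.

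**Figure D5:**
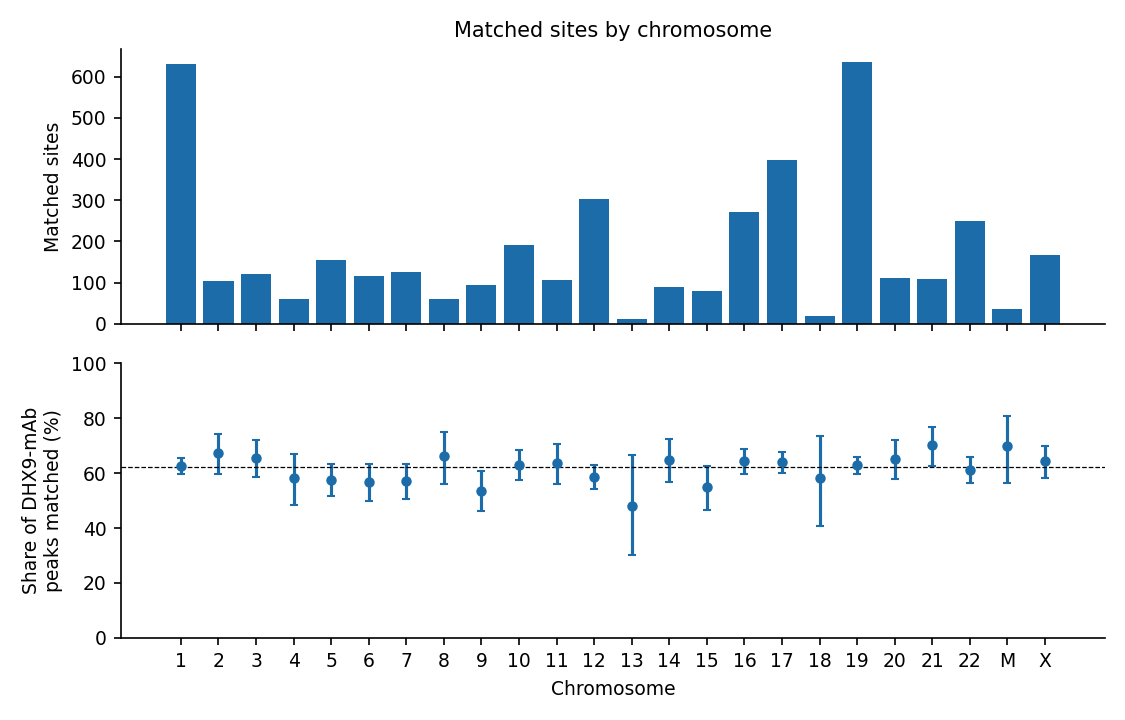
Number of matched sites on each chromosome (top) and the share of that chromosome's DHX9-mAb peaks that were matched (bottom, percent, with 95% Wilson intervals; dashed line, 62.1% over the whole list). Numbers range from 12 on chromosome 13 to 635 on chromosome 19, while the intervals of all but chromosomes 9 and 21 include the dashed line.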

How the data were processed

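Each deposited line gives a peak's strand and its outermost positions, counted from 1. Per the files' second column the authors called peaks with PEAKachu; its version, settings, control and way of joining replicates were not given in the sources used. Bowtie2 2.2.6 and hg19 are named, with no role, in the submitters' processing notes. How reads from repeats were placed is not given, and it could change which sites match. Scores were empty, so no depth was known. In all, 82 DHX9-mAb and 384 DHX9-Rb peaks overlapped another of their own list and strand.

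Peaks were matched as deposited (width: last minus first position plus 1). Intervals on medians are 95% binomial order-statistic intervals. Regions named were the 10 fullest 100 kb windows, the 10 longest runs, all sites with identical ends, and the 3 widest and most displaced, outside chromosome X. Members, rule and named genes were chosen with earlier results of these data known, and the comparison of 5′ and 3′ ends after seeing the offsets. The matching was tested on simulated data with planted offsets. Calculations ran in Python 3.11.15 with pandas 2.3.3, NumPy 2.4.6, matplotlib 3.10.9 and SciPy 1.17.1. Alternatives varied the overlap, its measure, the strand, merging of peaks within 50 nt, the sequences and the windows. No sequence was read, because no hg19 genome was used here.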

Additional observations from a re-analysis of the deposited data

How the results depend on the processing

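The required overlap set most values. With 25% of both widths, the median 5′ offset was -8 nt, the 3′ offset 17 nt, the width difference 37 nt and the spacing 1602 nt. With 75%, 1896 sites remained, the same medians were -1, 3, 5 and 72812 nt, and the median share matched over chromosomes was 28.2% in place of 63.0%. With 90%, 490 sites remained, and on the opposite strand 42 were found. These follow from which pairs each rule admits. The 5′ end stayed the closer one: ends within 10 nt were 21.5% (5′) and 16.4% (3′) at 25%, and 41.0% and 34.7% at 75%, alternatives chosen after seeing the data. Merging peaks within 50 nt left 3255 sites and a spacing of 20361 nt, with offsets of -3 and 10 nt. The matched share was then 51.6% of 6314 merged DHX9-mAb peaks, against 62.1% of the peaks as deposited. Requiring 50% of the nucleotides covered by either peak gave 4007 sites. Leaving out the mitochondrial chromosome and contigs moved no value beyond its interval. The densest window held 36 sites, and 37 or 35 with wider or shifted windows. No paired analysis was possible because each list joins its replicates, so no replicate could be left out either. Without read depth, a site missing from 1 list cannot be told from a site too shallow to be found.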

Other observations

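Pairs that the rule turned down can be given beside the matched sites. Among the 1769 DHX9-mAb peaks that overlapped a DHX9-Rb peak without matching it, the 5′ ends lay within 10 nt in 91 (5.14%, Wilson 4.21 to 6.27) and the 3′ ends in 62 (3.5%, 2.74 to 4.47). Within 50 nt the shares were 20.5% (18.7 to 22.5) and 16.2% (14.5 to 18). The positions of these peaks are what the rule judged them by, so they are a description and no independent support, and the difference was not tested.

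The narrowest peaks of the DHX9-mAb list were few. Only 19 were under 60 nt wide, of which 12 were matched. The share over the whole list was 62.1%, and counts this small do not set the narrowest peaks apart from it. All 3 peaks under 40 nt were matched, 2 of them with identical ends on chromosomes 7 and 8. The third was a 39 nt peak on the minus strand of the mitochondrial chromosome.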
